A study of Arabidopsis thaliana with 14 samples.

Results

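Late embryogenesis abundant (LEA) proteins and dehydrins are small hydrophilic proteins of plants. The 49 genes described here were listed by locus, from general knowledge of the LEA, dehydrin, COR15, RD29 and KIN families of *Arabidopsis thaliana*, and were found on the arrays through the locus each probe is assigned to. They are 49 of the 28327 loci on the array. Of these 49 genes, 40 were measured, which means that the probe gave a clear signal over background in 1 or more groups of 1 genotype and condition, on both arrays of the group, as it did for 22810 of all loci. Values were compared between the quadruple mutant *bri1brl1brl3bak1* (quad) and the Col-0 wild type (WT). Quad is mutated in BRI1, BRL1 and BRL3, the receptors of the brassinosteroid hormones, and in their co-receptor BAK1. Plants of both genotypes were 28 days old by the labels, were raised for 7 days on plates and 16 days in soil, and were collected at day 0 and after 2, 4 and 6 days with watering or with water withheld. The time course set the transcriptome of this receptor mutant against that of WT before and during drought. Each of the 14 arrays held quad and WT RNA of 1 of 7 conditions, with 2 arrays per condition and the dyes exchanged between them. The *bri1* allele of quad is generally known as a weak missense allele. By the study's methods its other alleles are *brl1-1*, *brl3-1* and *bak1-3*, and no treatment other than the watering is given. The sources leave the tissue unclear. The labels give mature whole plants, while the methods speak both of entire plants and of replicates that pooled several rosettes.

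LEA proteins accumulate in maturing seeds, where the embryo dries out, and in leaves and roots during drought, cold and salt stress. They are largely unstructured in water, and some fold when they dry or meet a membrane. Dehydrins are the family that carries the lysine-rich K-segment, and they bind membranes, water and ions. Many of the vegetative members are switched on by abscisic acid (ABA) through ABF and ABI5 factors, by cold and drought through the CBF/DREB1 and DREB2 factors, or by both routes.

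All levels below are log2 normalised signals of single channels, and all ratios are log2 differences. Calls needed both an adjusted p under 0.05 (limma, Benjamini-Hochberg over all genes) and an absolute log2 value over 1.5, the limits of the study's methods. With 2 arrays per condition the number of arrays limits the precision, and the p-values measure only the spread between these arrays. In such bulk samples, fewer cells of a type and less RNA per cell cannot be told apart. BRL1, BRL3 and BAK1 signals were lower in quad on 14 of 14 arrays, and BRI1 signal was lower on 1 of 14, with ratios between -0.03 and 0.79. Between replicate arrays the quad/WT ratios had a correlation across genes, which are not replicates, of r between 0.523 and 0.888. Root markers were above background in most channels, of both genotypes. They stood apart in WT at day 2 water, where the summed level of 9 of them was 10.49 on both arrays and 4 of the 9 were above background on both, against sums between 11.46 and 13.39 in all other channels. In WT at day 6 drought the replicates themselves differed, with root marker sums of 11.46 and 13.14.

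The members ranged from signal in every channel to signal in none, and the first 2 groups below overlap in mean level. Signal was well above background in all 28 channels for 20 members, in some channels for 24 and in none for 5. The 20 members with signal in every channel had mean levels between 7.37 and 15.6. Among them were all 3 listed LEA_2 proteins, all 3 listed LEA_3 proteins and both RD29 genes. By family, this group held 4 of 10 dehydrins (COR47, ERD10, ERD14 and LTI30), 5 of 15 LEA_4 proteins, 1 of 3 LEA_1 proteins and 1 of 2 KIN genes. The 24 members with signal in only some channels had mean levels between 6.17 and 7.92, and not all were near background. AT4G38410 among them was above background in 27 of 28 channels. Of the 24, 20 were measured, 1 of them being the dehydrin RAB18, with 20 of 28 channels above background.

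The 5 members without signal in any channel had mean levels between 6.12 and 6.26. They were EM1, a LEA_5 protein of dry seeds, the dehydrin XERO1, and the seed maturation proteins (SMP) ATECP31, AT3G22490 and AT5G53260. EM6 (listed as GEA6), the second LEA_5 gene of seeds, was above background in 6 channels. Of 12 seed markers outside the member list, storage proteins and oleosins among them, 3 were measured, and between 9 and 11 were above background on no array in each genotype and condition. The other 4 members that were not measured were M10, AT1G72100, AT4G39130 and AT5G53270, each above background in 1 to 4 channels. Brightness differs between probes for reasons other than RNA amount, so this split says where a probe gave signal and does not rank genes by expression.

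**Figure D1:**
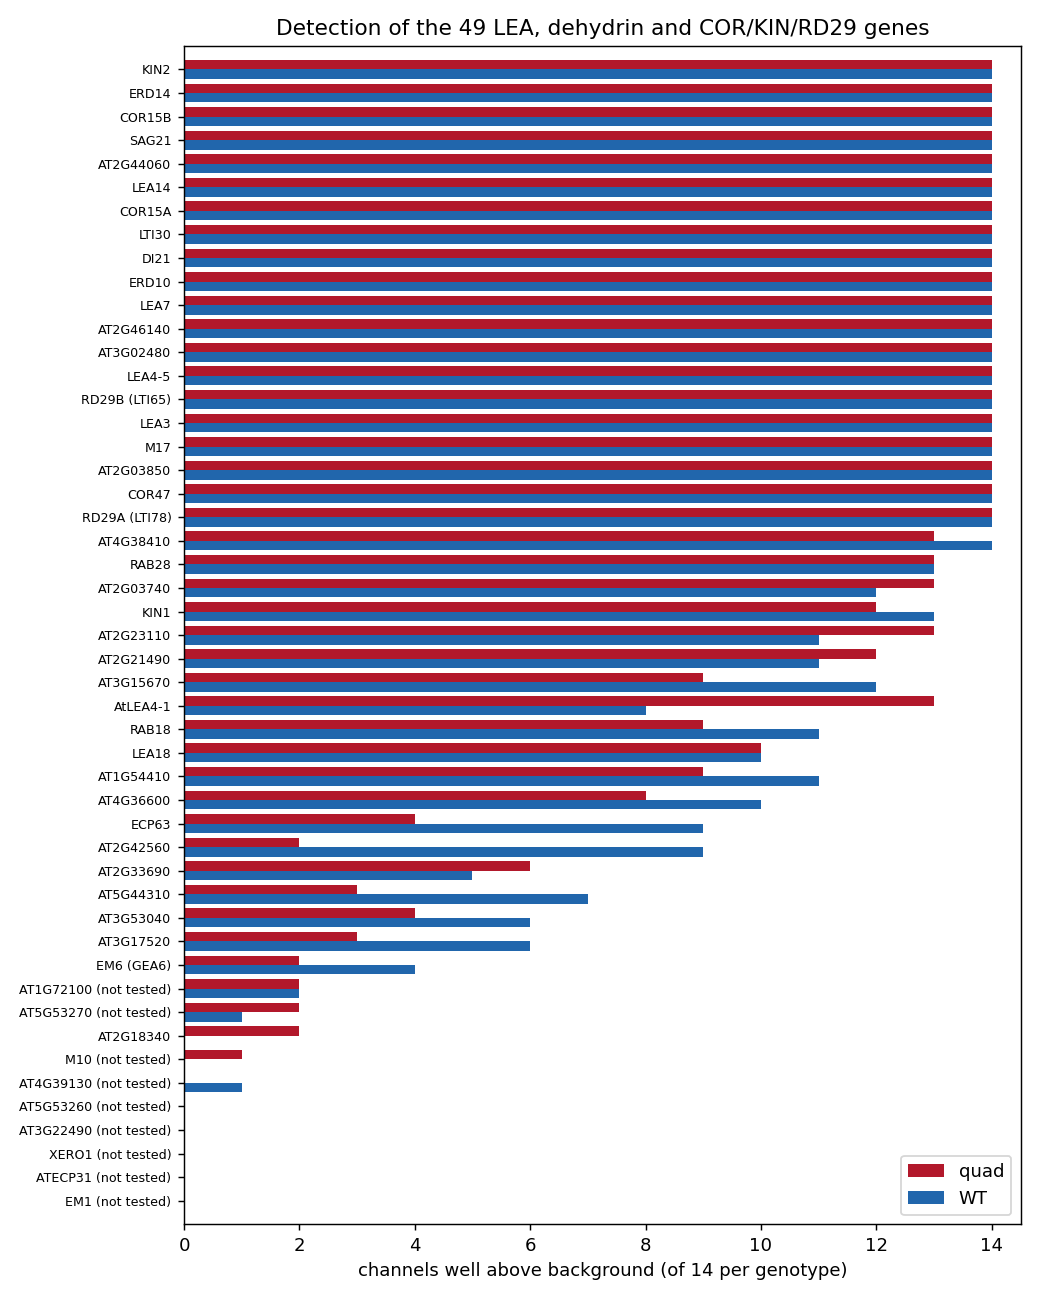
Number of channels, of 14 in quad and 14 in WT, in which the probe of each of the 49 members was well above background, with members that were not measured marked as not tested. Signal was in all 28 channels for 20 members, in some for 24 and in none for 5.

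At day 0, before water was withheld, the members with signal in every channel were mostly lower in quad. Their median quad/WT ratio was -0.97, against -0.07 for the members with signal in some channels and 0.00 for all genes tested. Of the 40 measured members, 7 were called lower and 0 higher in quad, where 0.636% of all genes were called lower. The 7 were the dehydrins ERD10, LTI30 and AT4G38410, the chloroplast protein COR15A, and LEA7, LEA4-5 and AT3G02480. At day 2 with watering the direction differed: 3 members were called higher in quad (LEA7, RD29B and SAG21) and 0 lower, where 1.58% of all genes were called higher, and the median over the 40 was 0.09.

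Under drought at day 2, 7 members were called lower, where 0.802% of all genes were, and 1 was called higher, where 0.0921% were. The median over the 40 was -0.37, and over the 20 with signal in every channel -1.18, with 18 of those 20 below 0. At day 4 the watered plants showed the larger count. There 9 members were called lower in quad and 0 higher, where 0.899% of all genes were called lower, and the median over the 40 was -0.48. At day 4 of drought 1 member was called lower (COR15A), where 0.127% of all genes were, and the median was -0.26. At day 6, 2 members were called lower with watering (LEA7 and LEA4-5), where 0.153% of all genes were, and 2 under drought (COR15A and LTI30), where 0.307% were. None of the 40 was called higher by limma on day 0, 4 or 6, and at an unadjusted p under 0.05 between 1 and 6 were higher in each of these conditions. The share of all genes at that looser limit is not given here.

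**Figure D2:**
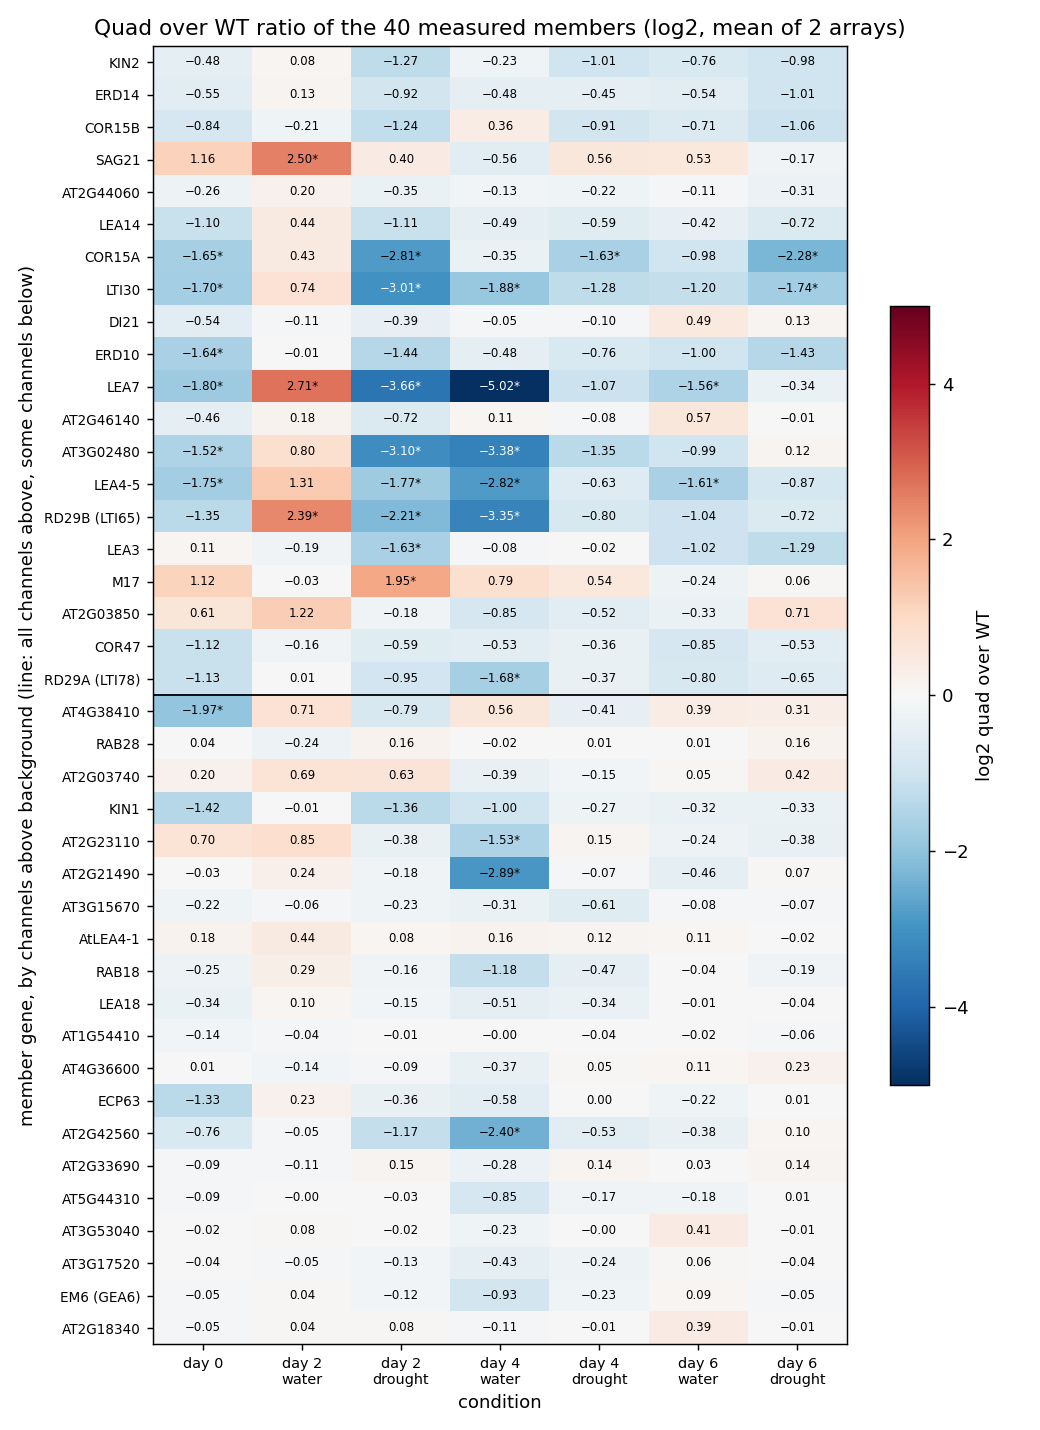
Quad/WT log2 ratio of each measured member in the 7 conditions, as the mean of 2 arrays, with the 20 members that had signal in every channel above the line and an asterisk at each called value. The AT2G42560 value at day 4 with watering rests on a quad signal that was not above background. Most members with signal in every channel are below 0 at day 0 and at day 2 of drought, LEA7 reaches -5.02 at day 4 with watering, and day 2 with watering is the condition with 3 members called higher.

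Across the 7 conditions, 25 of the 40 measured members were called in none, 9 in 1, and 6 in 3 or more, where 0.399% of all genes were called in 3 or more. LEA7 was called in 5 conditions. COR15A, LTI30 and LEA4-5 were called in 4, and RD29B and AT3G02480 in 3. Averaged over the 7 conditions, 1 member was called lower (LEA7, -1.54, 95% interval -1.62 to -1.45), where 0.0438% of all genes were. The LEA7 ratio ran from -5.02 (day 4 with watering) to 2.71 (day 2 with watering), so this average is no steady difference. Its interval measures only the spread between arrays of the same condition and treats all arrays as independent. By the adjusted p alone, 26 members were lower and 4 higher on this average, where 19.4% of all genes were lower and 17.5% higher.

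LEA7 (AT1G52690) is a LEA_4 protein of the ABA and drought response. At day 0 it measured 9.54 and 9.33 in quad, against 11.25 and 11.22 in WT. At day 2 with watering it measured 10.73 and 10.95 in quad, against 8.14 and 8.11 in WT. At day 4 with watering it measured 9.10 and 9.03 in quad, against 14.11 and 14.06 in WT. Quad was thus the lower genotype at day 0 and day 4 and the higher one at day 2, and the channels of the genotypes did not overlap in any of these conditions. The ratios were -1.80 (SE 0.10, adjusted p = 3.75e-07), 2.71 (adjusted p = 1.11e-08) and -5.02 (adjusted p = 8.16e-11). WT LEA7 moved more between watered days than it did under drought on any day: its watered means spanned 8.12 to 14.1, and the differences between these days were not tested.

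Under drought LEA7 measured 7.52 and 7.59 in quad at day 2, against 11.20 and 11.23 in WT. At day 4 it measured 13.45 and 13.44 in quad, against 14.56 and 14.48 in WT. The day 2 ratio was -3.66 (adjusted p = 3.35e-09). The day 4 ratio of -1.07 passed the adjusted p (4.89e-05) and not the log2 limit. By day 6 of drought both genotypes were low, with 8.18 and 8.30 in quad and 8.36 and 8.81 in WT, and the ratio was -0.34 (95% interval -0.56 to -0.12). With watering at day 6 it was -1.56 (adjusted p = 2.10e-06).

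RD29B (listed as LTI65, AT5G52300) is a classic ABA reporter gene whose promoter carries ABA-responsive elements. At day 2 with watering it measured 10.28 and 10.13 in quad, against 7.84 and 7.78 in WT. Under drought at day 2 it measured 7.51 and 7.34 in quad, against 9.38 and 9.90 in WT. At day 4 with watering it measured 8.87 and 8.63 in quad, against 12.18 and 12.01 in WT. The called ratios were 2.39 (adjusted p = 3.47e-07), -2.21 (adjusted p = 1.13e-06) and -3.35 (adjusted p = 4.21e-08), the same order of signs as in LEA7. At day 0 the ratio of -1.35 (adjusted p = 6.34e-05) stayed inside the log2 limit.

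LEA4-5 (AT5G06760) is a LEA_1 protein of the water deficit response. At day 0 it measured 9.34 and 9.66 in quad, against 11.04 and 11.46 in WT. At day 4 with watering it measured 8.24 and 8.36 in quad, against 10.97 and 11.27 in WT. It was called lower in quad at day 0 (-1.75), day 2 of drought (-1.77), day 4 with watering (-2.82, adjusted p = 4.42e-07) and day 6 with watering (-1.61). At day 2 with watering the ratio was 1.31 (95% interval 0.95 to 1.67), above 0 and under the log2 limit.

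AT3G02480 is a small member of the LEA_4 family. At day 2 of drought it measured 7.29 and 7.84 in quad, against 10.61 and 10.72 in WT. At day 4 with watering it measured 8.75 and 8.78 in quad, against 12.19 and 12.10 in WT. The ratios were -3.10 (adjusted p = 1.85e-07) and -3.38 (adjusted p = 5.67e-08), and the channels of the genotypes were far apart. Like LEA7, it was high in both genotypes at day 4 of drought, with 11.58 and 11.47 in quad and 12.89 and 12.86 in WT.

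**Figure D3:**
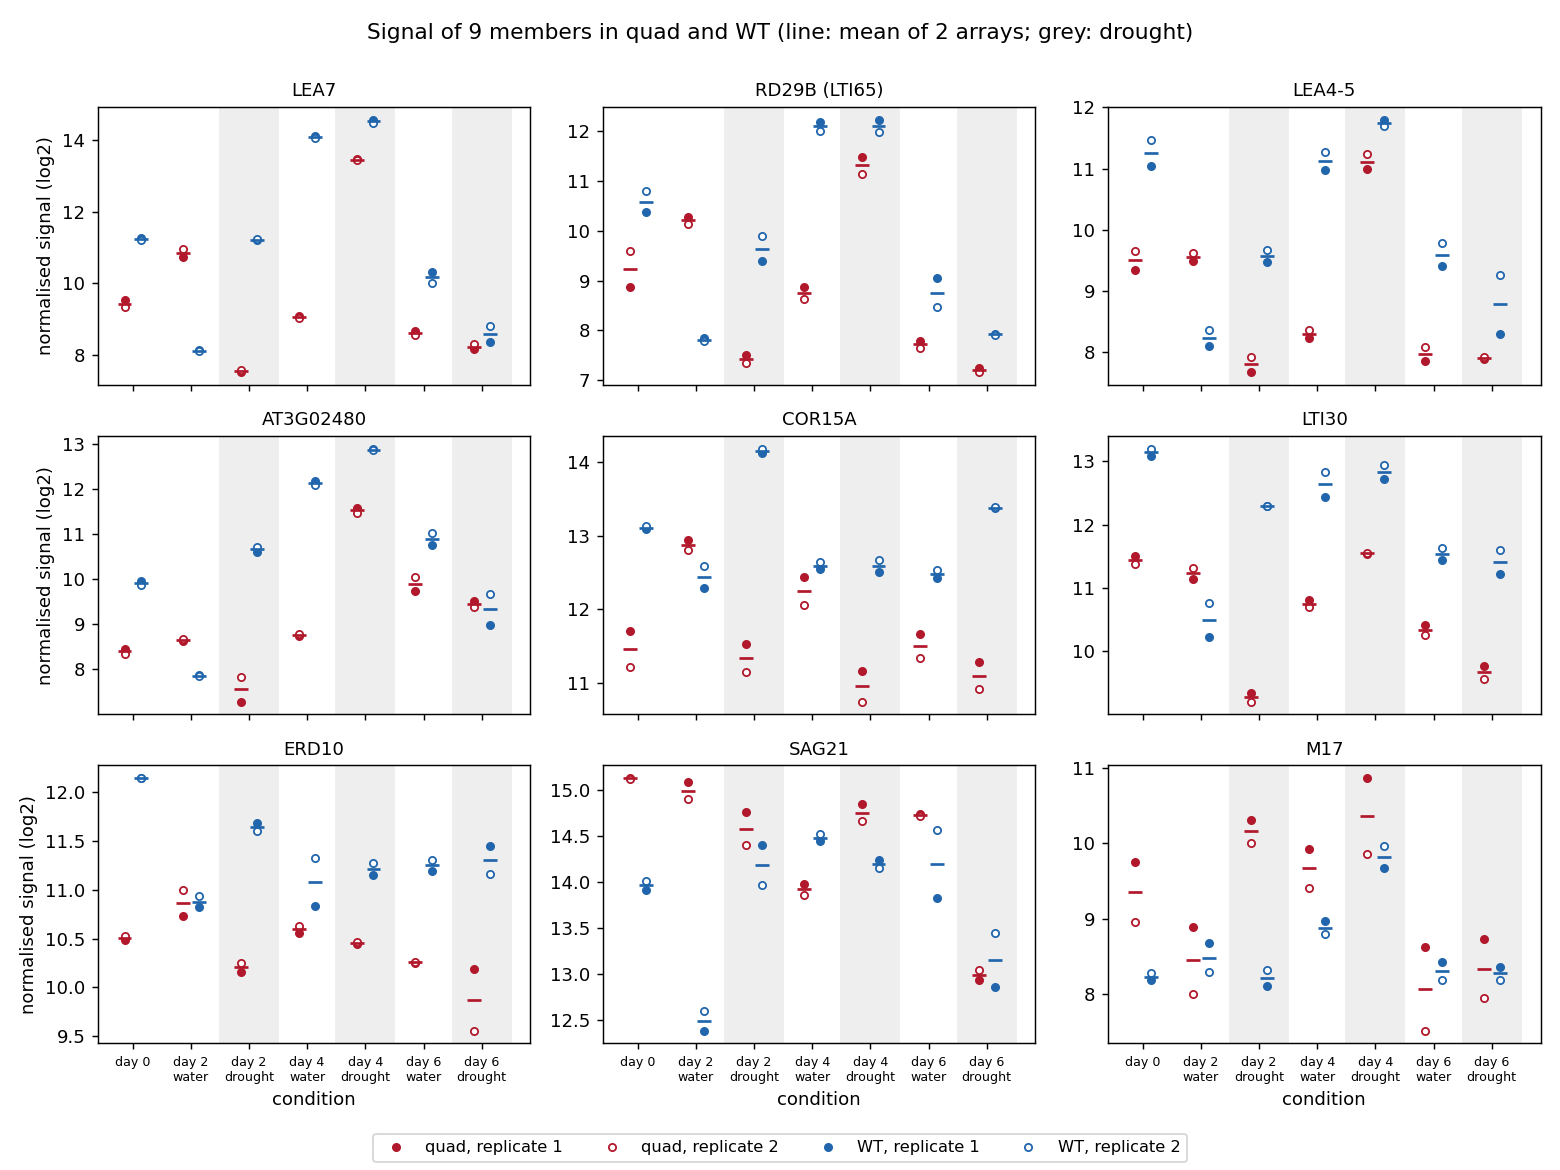
Log2 normalised signal of 9 members in quad and WT over the 7 conditions, with 1 point for each of the 2 arrays per condition, a line at their mean and drought shaded grey. In LEA7, RD29B, LEA4-5 and AT3G02480 quad is above WT at day 2 with watering and far below it at day 4 with watering, and both genotypes are high at day 4 of drought.

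COR15A (AT2G42540) encodes a chloroplast stroma protein that protects membranes during freezing, and it showed another profile over the days. It measured 11.70 and 11.21 in quad at day 0, against 13.08 and 13.13 in WT. By day 2 of drought it measured 11.52 and 11.15 in quad, against 14.12 and 14.18 in WT. At day 6 of drought it measured 11.28 and 10.91 in quad, against 13.37 and 13.39 in WT. COR15A was thus lower in quad under drought on every day, with ratios of -2.81 (adjusted p = 1.59e-06), -1.63 (adjusted p = 0.000361) and -2.28 (adjusted p = 2.05e-05) at days 2, 4 and 6. With watering at day 4 the ratio was -0.35 (95% interval -0.77 to 0.07), so the large day 4 difference of LEA7 was not seen here. A second, dimmer COR15A probe was above background in 4 of 28 channels and gave ratios near 0. With the mean of both probes the called COR15A ratios at day 0 and at days 4 and 6 of drought were -0.92, -0.79 and -1.25, below the log2 limit.

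LTI30 (AT3G50970) is a dehydrin of cold and drought that binds membranes through its K-segments. At day 0 it measured 11.50 and 11.38 in quad, against 13.09 and 13.20 in WT. At day 2 of drought it measured 9.35 and 9.21 in quad, against 12.29 and 12.29 in WT. It was called lower in quad at day 0 (-1.70), at day 2 of drought (-3.01, adjusted p = 2.48e-07), at day 4 with watering (-1.88) and at day 6 of drought (-1.74), and both arrays were on the same side each time.

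The other dehydrins were each called in 1 condition at most. ERD10 (AT1G20450), an acidic dehydrin of cold and dehydration, measured 10.49 and 10.53 in quad at day 0, against 12.15 and 12.15 in WT, and the ratio of -1.64 (adjusted p = 1.50e-06) was its only called one. The related COR47 was dim, between 7.02 and 8.51 over all channels, with a day 0 ratio of -1.12 (adjusted p = 0.000287). ERD14 was bright, between 13.4 and 15.1, and its ratios lay between -1.01 and 0.13 in the 7 conditions. RAB18, an ABA-responsive dehydrin of guard cells and seeds, was near background, with its lowest ratio of -1.18 at day 4 with watering, where it measured 6.41 and 6.53 in quad and 7.45 and 7.85 in WT. AT4G38410 measured 7.23 and 7.28 in quad at day 0, against 9.06 and 9.40 in WT, a ratio of -1.97 (adjusted p = 5.48e-06), and was called in no other condition.

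COR15B, the neighbour and paralog of COR15A, and the KIN genes were not called in any condition. COR15B measured 13.81 and 13.56 in quad at day 2 of drought, against 14.98 and 14.88 in WT, a ratio of -1.24 (95% interval -1.48 to -1.01). KIN2 at day 2 of drought measured 15.09 and 14.58 in quad, against 16.09 and 16.13 in WT, a ratio of -1.27 (95% interval -1.95 to -0.59). KIN1 measured 6.68 and 6.66 in quad at day 0, against 8.19 and 8.00 in WT, a ratio of -1.42. Probe sequences were not used here, so how far the probes of KIN1 and KIN2, or of COR15A and COR15B, pick up the other gene of the pair was not tested.

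RD29A (listed as LTI78, AT5G52310), the neighbour of RD29B, responds to cold and drought through dehydration-responsive elements as well as to ABA. Its probe was dim. At day 4 with watering it measured 6.66 and 6.98 in quad, against 8.51 and 8.48 in WT, and the ratio of -1.68 (adjusted p = 8.58e-06) was the one called. At day 2 with watering, where RD29B was called higher in quad, RD29A measured 7.51 and 7.42 in quad and 7.43 and 7.48 in WT, a ratio of 0.01 (95% interval -0.31 to 0.32). The RD29B ratio exceeded that of RD29A by 2.36 and 2.41 on the 2 arrays of day 2 with watering and was under it by 1.47 and 1.87 on those of day 4 with watering.

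LEA14 (AT1G01470), a folded LEA_2 protein, had signal in every channel. At day 2 of drought it measured 13.24 and 12.87 in quad, against 14.22 and 14.12 in WT, a ratio of -1.11 (adjusted p = 0.000153), and it was called in no condition. The LEA_2 protein AT2G44060 had ratios between -0.35 and 0.20 in the 7 conditions, the least of any bright member described here, and its 95% interval at day 2 of drought was -0.66 to -0.04.

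The LEA_3 proteins, a family found in mitochondria, did not move as one. SAG21 (AT4G02380), a senescence and oxidative stress gene, was among the few members with higher levels in quad. At day 2 with watering it measured 15.08 and 14.90 in quad, against 12.38 and 12.60 in WT, a ratio of 2.50 (adjusted p = 6.18e-07). At day 0 the ratio was 1.16 (adjusted p = 0.000524). Its 2 probes gave alike values. LEA3 (AT1G02820), named after its values were seen, measured 8.29 and 8.45 in quad at day 2 of drought, against 9.97 and 10.03 in WT, a ratio of -1.63 (adjusted p = 3.57e-05). DI21, another LEA_3 gene, stayed between -0.54 and 0.49.

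M17 (AT2G41260), a member of the small AtM family first described in seeds, was the member called higher in quad at day 2 of drought. It measured 10.32 and 10.005 in quad, against 8.11 and 8.32 in WT, a ratio of 1.95 (adjusted p = 0.000886). The spread between its replicates was wide in other conditions, with ratios of 1.20 and -0.11 on the 2 arrays of day 4 drought. Of its 3 probes, 2 gave alike values and the third stayed flat, and with the mean of the 3 the ratio was 1.35, below the log2 limit.

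At day 4 with watering, members with signal in only some channels added to the count of lower calls. AT2G21490 is annotated as a dehydrin. It measured 6.33 and 6.59 in quad, with 1 of the 2 arrays well above background, against 9.25 and 9.45 in WT, a ratio of -2.89 (adjusted p = 7.86e-07). The LEA_4 protein AT2G42560 was not well above background on any quad array of this condition and measured 8.70 and 8.51 in WT. Its WT signal was 5.29-fold the quad signal (adjusted p = 1.65e-06). The quad signal was used as read, so this fold is neither a measured size nor a strict bound. The same holds for EM6 and ECP63 below. AT2G23110, of the PvLEA18 family, measured 6.53 and 6.70 in quad, against 8.24 and 8.04 in WT, a ratio of -1.53 (adjusted p = 4.09e-05). These 3 genes were named after their values were seen. EM6 was not well above background in quad either and measured 7.29 and 7.33 in WT, 1.90-fold the quad signal and not called. Of the other members with signal in only some channels, ECP63, a LEA_4 protein of embryos, was not well above background on either quad array at day 0. Its WT signal was 2.51-fold the quad signal there (adjusted p = 1.63e-06), also not called.

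Pollen and anther markers differed between the genotypes in the same condition. Of 10 such markers, 7 were called lower in quad at day 4 with watering, with a median ratio of -2.22. Their summed level was 11.47 and 11.31 in quad, with 7 of 10 above background on both arrays and 2 on none, against 13.62 and 13.76 in WT, with 10 of 10 above background. At day 4 of drought the sums were 13.37 and 13.38 in quad and 13.62 and 13.50 in WT, and 0 markers were called between the genotypes. Of 7 petal and stamen regulators, 2 (MYB21 and MYB24) were called lower in quad at day 4 with watering. Their part in the member ratios of that day was not tested. Of the 3 measured seed markers 0 were called, and the summed levels of all 12 lay between 9.90 and 10.10 in all channels. Most of the 12 were above background on no array, so this sum could hardly show a change.

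Setting drought against water inside each genotype, between arrays, the 2 genotypes moved in opposite directions at day 2. In quad 5 members fell under drought (LEA7, RD29B, LEA4-5, LTI30 and COR15A), where 0.473% of all genes did, and 1 rose (M17), where 0.0177% did. In WT 6 members rose (LEA7, RD29B, LTI30, COR15A, AT3G02480 and SAG21), where 0.892% of all genes did, and 0 fell. Of the 20 members with signal in every channel, 19 had a value below 0 in quad and 19 a value above 0 in WT, M17 being the exception both times. Their median was -0.66 in quad and 0.65 in WT. LEA7 drought minus water was -3.28 in quad (adjusted p = 2.42e-13) and 3.09 in WT (adjusted p = 3.86e-12), RD29B -2.78 in quad and 1.83 in WT, LTI30 -1.95 in quad and 1.80 in WT.

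Tested directly, the drought minus water difference of the quad/WT ratio at day 2 was called below 0 for 8 members, where 2.54% of all genes were, and above 0 for 1 (M17), where 0.175% were. It was -6.37 for LEA7 (adjusted p = 1.16e-10), -4.61 for RD29B, -3.90 for AT3G02480, -3.75 for LTI30, -3.24 for COR15A, -3.09 for LEA4-5, -2.11 for SAG21 and -1.56 for LEA14. The drought and water arrays of day 2 shared a slide in both replicates. At this day WT levels were low with watering. Among the 7 conditions, day 2 with watering held the lowest WT mean of LEA7, RD29B, LEA4-5, AT3G02480, LTI30 and COR15A. WT means at day 2 of drought were below those of day 0 for LEA7 (11.22 against 11.23) and RD29B (9.64 against 10.58). The same held for LEA4-5 (9.57 against 11.25) and LTI30 (12.29 against 13.14). They were above those of day 0 for AT3G02480 (10.67 against 9.93) and COR15A (14.15 against 13.11). These differences between days were not tested.

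Root markers moved the same way at day 2. Of 9 root markers, 8 were called higher in WT under drought than with watering, with a median of 3.02, and their summed level was 13.16 and 13.24 in WT under drought, against 10.49 and 10.49 in watered WT. In quad the sums were 11.46 and 11.60 under drought, against 12.79 and 12.71 with watering, and 3 of 9 were called lower. Between the genotypes 7 of 9 were called lower in quad at day 2 of drought (median -2.35) and 4 of 9 higher at day 2 with watering (median 1.21). In the other conditions, 2 of 9 root markers were called higher in quad at day 0. At day 4, 3 were higher and 1 lower with watering (median 1.22), and 1 was lower under drought. At day 6, 7 were higher with watering (median 1.99), and 4 were higher and 1 lower under drought (median 1.34). Every member called in those conditions was lower in quad. The part of the root markers in the member results of any day was not tested. Of 10 leaf photosynthesis markers, 1 (CAB2, -1.61) was called between the genotypes at day 2 of drought and none within either genotype at day 2.

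**Figure D4:**
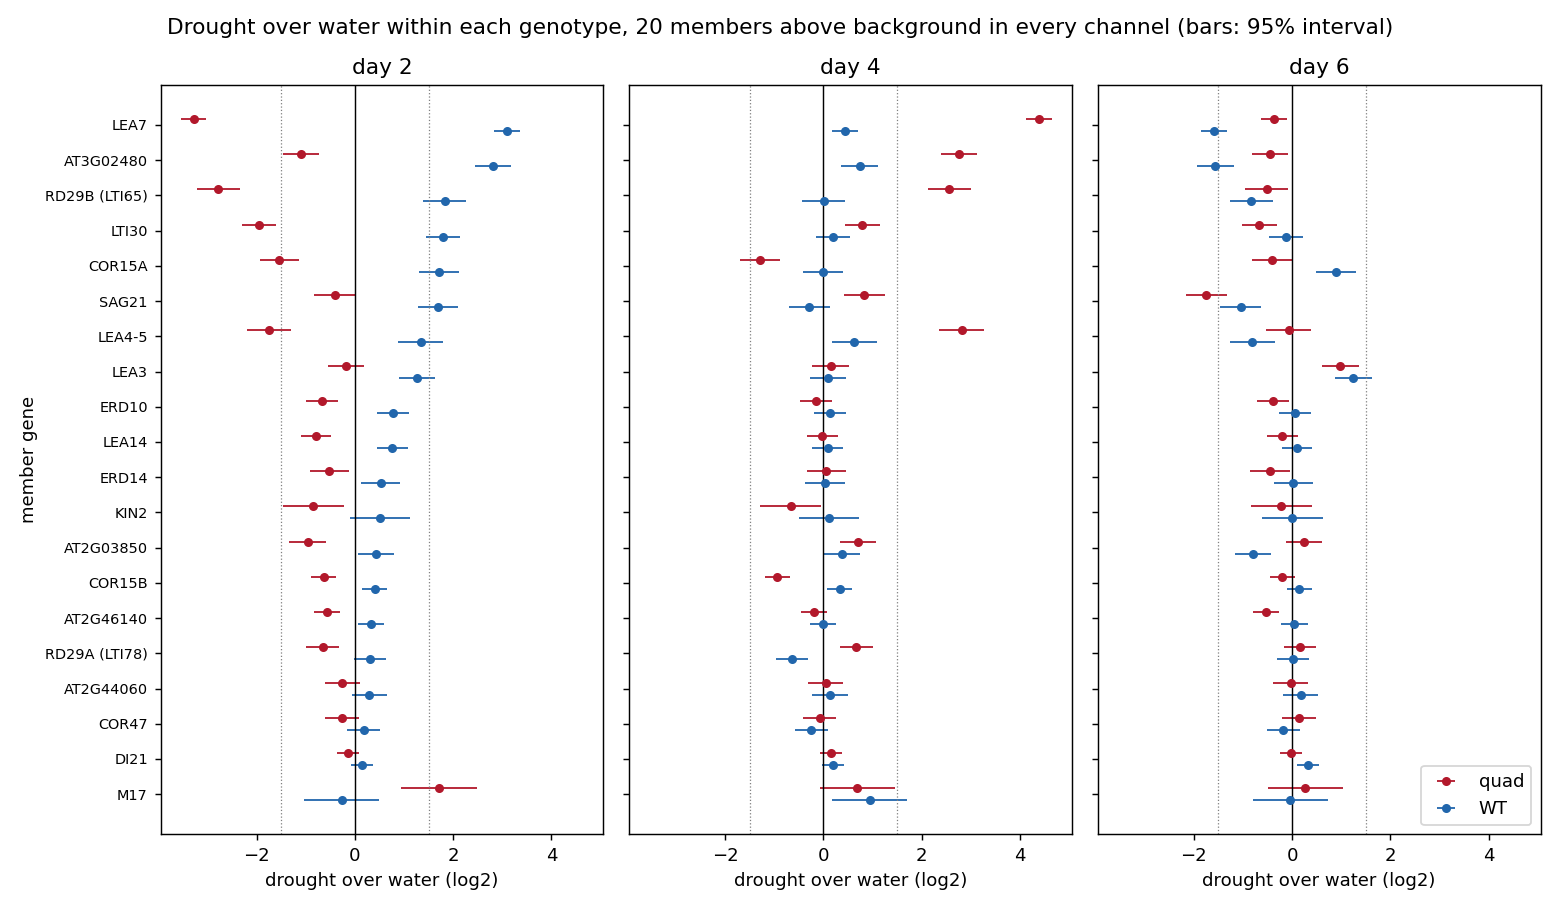
Drought over water log2 value of the 20 members with signal in every channel, in quad and in WT, at days 2, 4 and 6, with 95% intervals as bars and dotted lines at the log2 limit of 1.5 on each side of 0. At day 2, 19 of the 20 quad points lie below 0 and 19 of the 20 WT points above it, and at day 4 LEA7 reaches 4.38 in quad beside 0.43 in WT.

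At day 4 the called drought responses were in quad. There 7 members rose (LEA7, RD29B, LEA4-5, AT3G02480, AT2G21490, AT2G42560 and AT2G23110), where 0.287% of all genes did, and 0 fell. In WT 0 of 40 were called by limma, where 0.225% of all genes were called in either direction, and 3 passed the adjusted p alone (8 higher and 4 lower at an unadjusted p under 0.05). The shares of all genes at these looser limits are not given here. LEA7 drought minus water was 4.38 in quad (adjusted p = 4.08e-15) and 0.43 in WT (95% interval 0.17 to 0.69). All 7 members that rose in quad were called lower in quad than in WT with watering at this day. WT means with watering and under drought were 14.09 and 14.52 for LEA7, 12.10 and 12.11 for RD29B, and 11.12 and 11.75 for LEA4-5. They were 12.14 and 12.88 for AT3G02480, 9.35 and 8.69 for AT2G21490, 8.60 and 8.68 for AT2G42560, and 8.14 and 8.48 for AT2G23110. In replicate 1 the day 4 drought and water arrays lay on different slides, and in replicate 2 they shared a slide. AT2G42560 in quad under drought was 3.86-fold its watered signal, which was not above background, so this fold is no strict bound. The difference of the ratio was called above 0 for 7 members, each of those named for quad, where 0.623% of all genes were, with values between 1.68 (AT2G23110) and 3.95 (LEA7). COR15A went the other way, with a difference of -1.28 (adjusted p = 0.0193). Pollen and anther markers rose beside them: 5 of 10 were called higher in quad under drought, with a median of 1.68, and 6 of 10 in the difference, with a median of 1.85. Their part in the member results was not tested.

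At day 6 few members responded. In quad 1 member fell under drought (SAG21), where 0.879% of all genes did. It measured 12.93 and 13.03 in quad under drought, against 14.74 and 14.71 in quad with watering, a difference of -1.74 (adjusted p = 1.85e-06). In WT 2 fell, where 0.256% of all genes did: LEA7 by 1.58 (adjusted p = 2.58e-08) and AT3G02480 by 1.56 (adjusted p = 3.56e-06). AT3G02480 measured 8.98 and 9.68 in WT under drought, against 10.76 and 11.03 in WT with watering, and it is in these drought arrays that the root marker sums differed. Without the first day 6 drought array 0 members were called in WT, and without either watered array of day 6 1 was. The drought minus water difference of the ratio was called for 0 of 40 members at day 6, where 0.381% of all genes were called in either direction, and 5 passed the adjusted p alone, LEA7 with 1.22 (adjusted p = 0.000637) among them. At an unadjusted p under 0.05, 4 were above 0 and 9 below, and the shares of all genes at these looser limits are not given here.

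Several members lie side by side in the genome. In the gene order of the TAIR10.1 annotation, 17 of the 49 members belonged to 9 pairs that were adjacent or had 1 gene between them, COR47 with ERD10, COR15B with COR15A, KIN1 with KIN2 and LTI65 with LTI78 among them. Neighbours did not always share their ratios. On day 2 of drought the COR15B ratio exceeded that of COR15A by 1.43 and 1.71 on the 2 arrays. COR47 and ERD10 differed by 1.03 or less on every array.

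Of 15 ABA and dehydration regulators, 14 were tested. CBF2, a cold-responsive DREB1 factor that activates COR genes, was lower in quad at day 2 of drought (-1.56), day 6 with watering (-1.72) and day 6 of drought (-1.997), where CBF1 (-1.79) and DREB1A (-1.58) were also called lower. No regulator was called between the genotypes at day 0, at day 4 or at day 2 with watering. By the adjusted p alone, 7 of the 14 were lower in quad at day 0 and 1 higher, with a lowest ratio of -1.48. At day 2 with watering 3 were lower and 1 higher by that limit. The shares of all genes at this looser limit are not given here. The ABA-activated factor ABF3 had a called drought minus water difference of -1.61 at day 2. In WT CBF2 rose under drought at day 2 (1.73) and day 6 (1.54). DREB1A rose at day 6 in both genotypes, by 1.71 in quad and by 2.61 in WT.

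Of 9 other dehydration genes, RD20, a caleosin of lipid bodies that ABA induces, was called lower in quad at day 2 of drought (-1.85), day 4 with watering (-1.60), day 6 with watering (-1.92) and day 6 of drought (-1.56). The day 2 difference was called below 0 for 4 of the 9: RD20 (-2.70), the galactinol synthase GolS2 (-2.56), the proline synthesis enzyme P5CS1 (-2.11) and RD22 (-2.10). Of 6 LEA loci outside the member list, 4 were tested. AT5G27980 was called lower in quad at day 4 with watering (-1.86), and AT2G23120 had a called difference of -1.56 at day 2.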

How the data were processed

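RNA of quad and WT was hybridised together on 14 Agilent 2-colour arrays (45210 spots), quad in Cy5 in replicate 1 and in Cy3 in replicate 2, so that replicate number and dye orientation are the same variable. Per the file headers, Feature Extraction 10.5.1.1 wrote raw and processed intensity values and quality flags for each spot, and a log10 ratio of Cy5 over Cy3. The authors also deposited 1 table of normalised ratios, which the methods describe as made in limma by normexp and quantile normalisation. Set against the scanner's log10 ratio of each array (r between 0.707 and 0.966), these deposited values are on the log2 scale, Cy5 over Cy3. They served as an alternative. The number of sample columns that could not be used was 0. The genome build of the array design is not given in the sources used here, so no coordinates are printed.

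Raw median intensities were corrected in limma 3.58.1 (R 4.3.3, statmod 1.5.0, data.table version 1.17.8) by normexp (mle, offset 50), which understates ratios of dim spots, then loess and Aquantile normalised. The 1417 control spots were left out after normexp, and so were outlier spots (1 to 126 per array). On 1 array 19 spots had a background over their signal by more than 200. These spots were kept in the main fits and masked only in an alternative. A locus is given for 36953 of 43643 probes, and 27785 of 28327 loci matched the TAIR10.1 table for symbols. The brightest probe stood for a locus with 2 or more (4940 loci). The filter left 22810 genes and removed 5517.

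Ratios turned to quad over WT were fitted over all genes with 1 coefficient per condition (lmFit, eBayes, two-sided, 7 residual and 4.81 prior degrees of freedom). Drought over water within a genotype was fitted on the 28 channels (lmscFit, intraspot correlation 0.250, 22641 genes). Fits without 1 array used the same correlation, since it cannot be estimated with 1 array in a condition. The scripts were tested on simulated data. Named with single-array values are members called in 3 or more conditions, the 2 largest called values each way per contrast, and textbook dehydration markers. The members, families and lists were drawn up from general knowledge with earlier results of these data known. Alternatives were the offset, the starting signals, the normalisation, centring, filter, probe rule and call rule. Others were replicate and slide blocks, the deposited table, masking of the spots with high background, and leaving out each array.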

Additional observations from a re-analysis of the deposited data

Results flagged for a closer look

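The drought minus water difference of the quad/WT ratio, a test by limma of whether the genotype difference depends on watering, was called for 9 members at day 2 and 7 at day 4. At day 2 the log2 values were -6.37 for LEA7, -4.61 for RD29B (LTI65), -3.90 for AT3G02480, -3.75 for LTI30, -3.24 for COR15A, -3.09 for LEA4-5, -2.11 for SAG21, -1.56 for LEA14 and 1.98 for M17. At day 4 they were 3.95 for LEA7, 2.82 for AT2G21490, 2.55 for RD29B, 2.19 for LEA4-5, 2.03 for AT3G02480, 1.87 for AT2G42560 and 1.68 for AT2G23110. The AT2G42560 value rests on watered quad arrays where its probe was not above background and is no measured size: it was 4.25 with the scanner's processed signals. LEA7, RD29B, LEA4-5 and AT3G02480 were below 0 at day 2 and above 0 at day 4, on both arrays each time. With 2 arrays per condition no sample could be tested as an outlier of its group.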

How the results depend on the processing

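The 71 called member values were recomputed under the alternatives, 1770 values in all: 1738 kept the call, 32 lost it and 0 changed sign, and 54 of the 71 never lost it. Counts of called members stayed within 1.5 times in 424 recomputed counts 374 times. The cause of the changes was not tested. Without the offset of 50, ratios of dim spots are not pulled to 0: 12 members were called at day 0, 5 on watered day 2 and 13 on dry day 2, 17 in the day 2 difference of drought and water, 2 in the mean of conditions and 11 for drought in WT at day 2. With the scanner's processed signals the counts were 17 at day 0, 10 and 14 for water and drought on day 2, 18 and 2 on day 4, 6 for water on day 6, 21, 11 and 1 in the differences at days 2, 4 and 6, 3 in the mean, 11 and 3 for drought in quad at days 4 and 6, and 14, 1 and 4 for drought in WT at days 2, 4 and 6. By the adjusted p alone they were 21, 13, 22, 24, 10, 16 and 13 (day 0, then water and drought at days 2, 4 and 6), 23, 15 and 5 in the differences, 30 in the mean, 14, 17 and 6 for drought in quad and 16, 3 and 11 for drought in WT. In the mean, 19.4% of all genes were lower and 17.5% higher by the adjusted p alone. For the other counts under these 3 alternatives the share over all genes is not given, so they are not set against a general share. With the mean of all probes of a locus 0 members were called at day 4 drought and 1 at day 6 drought, since COR15A was no longer called. With only genes above background in all 28 channels, 4 were called in the day 4 difference and 4 for drought in quad at day 4, since fewer members were tested.

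Leaving out 1 array, the counts ranged over 7 to 8 at day 0, 3 to 3 and 8 to 10 for water and drought on day 2, 8 to 9 and 0 to 1 on day 4 (0 without replicate 2 of drought), and 1 to 2 and 2 to 4 on day 6 (1 without replicate 1 of water, 4 without replicate 1 of drought). They ranged over 9 to 10, 6 to 8 and 0 to 1 in the differences at days 2, 4 and 6 (1 without replicate 2 of day 6 drought or of day 6 water), 1 to 1 in the mean, 5 to 6, 7 to 7 and 1 to 1 for drought in quad, and 5 to 6, 0 to 0 and 0 to 3 for drought in WT. Leaving out replicate 1 of day 2 water or replicate 2 of day 2 drought ended the calls of LEA14 in the difference (-1.40 and -1.42) and of COR15A for drought in quad (-1.46 and -1.35), and leaving out replicate 1 of day 2 drought or replicate 2 of day 2 water those of M17 in the difference (1.71 and 1.73) and in quad (1.56 and 1.27). SAG21 for drought in WT at day 2 was 1.47 without replicate 1 of drought. COR15A at day 0 was -1.38 without replicate 2, and on day 4 under drought -1.34 without replicate 2. LTI30 on day 6 under drought was -1.45 without replicate 2, and LEA7 with water on day 6 was -1.45 without replicate 1. For drought in WT at day 6, LEA7 was -1.36 without replicate 1 of drought and -1.42 without replicate 1 of water, and AT3G02480 was -1.21 without replicate 1 of drought and -1.43 without replicate 2 of water. Without replicate 1 of day 4 water, AT2G23110 was -1.34 there and 1.49 in the difference. Quantile normalisation ended the calls of AT3G02480 at day 0 (-1.43), AT2G23110 with water on day 4 (-1.40) and COR15A for drought in quad at day 2 (-1.48).

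Same-numbered arrays of different conditions had correlated deviations with r between 0.004 and 0.634 (median 0.413) over 21 pairs of conditions, and 19 of the 21 were over 0.1. Same-numbered arrays thus shared part of their deviations in most pairs. Replicate number and dye orientation cannot be told apart here, and what the correlation reflects was not tested. No label says that a number marks a shared batch, and not every pair was over 0.1, so the samples were not treated as paired. With the replicate number, which is the dye orientation, as a block the counts were 7, 3, 8, 9, 1, 2 and 2 in the 7 conditions, 9, 7 and 0 in the differences, 1 in the mean, 6, 7 and 1 for drought in quad and 6, 0 and 2 for drought in WT, as without the block. Signal over background limits the members near background, where a ratio close to 0 does not show equal levels.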
